A study of Mus musculus with 12 samples.

Results

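The 10 genes described here encode receptors that detect bacterial products and the proteins that carry their signal into the cell, namely Tlr4, Ly96, Cd14, Tlr1, Tlr2, Myd88, Ticam1, Irak4, Nod1 and Nod2. They were taken by gene name, each stood on a single row, and together they are 10 of 31340 gene rows. The RNA came from bone marrow of WT mice kept under SPF conditions, from a sort for hematopoietic stem cells (HSCs), which give rise to all blood lineages. There were 12 libraries in 4 groups of 3: Ctrl, and the irradiated groups IR, Ab_IR and L_IR, all collected 3 days after ionizing radiation (IR). What Ab and L stand for is not given in the labels, and the names are kept as they are. The study's methods describe IR as a single sublethal total body exposure to gamma rays of C57BL/6 mice. The labels give no age, do not say whether a library holds cells of 1 mouse or several, and do not say whether replicates are separate mice, so p-values measure only the spread between these libraries. The methods gave the sort as lineage-negative, Sca-1+ and c-Kit+ cells without Flt3 and CD34.

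Bacteria are detected by receptors at the cell surface and in the cytosol. TLR4 binds lipopolysaccharide (LPS) of Gram-negative bacteria together with its partner MD-2, the product of Ly96, and CD14 hands LPS over to this pair. TLR2 pairs with TLR1 to bind bacterial lipopeptides. All 3 TLRs signal through the adaptor MyD88 and the kinase IRAK4 towards NF-kappa-B, and TLR4 also signals through TRIF, the product of Ticam1, towards interferon genes. NOD1 and NOD2 detect fragments of peptidoglycan, the bacterial cell wall, in the cytosol. These receptors are best known from monocytes, macrophages and neutrophils, and hematopoietic stem and progenitor cells are known to carry some of them.

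The bases before the transcription start of 5 of the 6 genes that rose together in IR, all but Tlr4, are shown here, since they are where transcription factors of the same pathways can bind. Sequences are from RefSeq promoters of GRCm38.p6, of which entries for 7 of the 10 genes were used, and stop before the first annotated exon base. Tlr4, Ly96 and Cd14 were not searched. The Myd88 stretch lies in an intron of a longer annotated transcript that starts farther upstream. The Tlr2 sequence is chr3:83841768-83841858 on the minus strand, Tlr1 is chr5:64933564-64933808 on the minus strand, Myd88 is chr9:119340042-119340268 on the minus strand, Irak4 is chr15:94543410-94543642 on the plus strand and Ticam1 is chr17:56276787-56277017 on the minus strand. Capitals mark an NF-kappa-B motif in Tlr2, the interferon-response core GAAANNGAA in Myd88 and the ETS core GAGGAA in Tlr1 and Ticam1. Both strands of the 250 bases before each start were searched.
Tlr2: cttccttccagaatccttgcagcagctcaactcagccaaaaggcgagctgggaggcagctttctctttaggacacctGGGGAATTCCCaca
Tlr1: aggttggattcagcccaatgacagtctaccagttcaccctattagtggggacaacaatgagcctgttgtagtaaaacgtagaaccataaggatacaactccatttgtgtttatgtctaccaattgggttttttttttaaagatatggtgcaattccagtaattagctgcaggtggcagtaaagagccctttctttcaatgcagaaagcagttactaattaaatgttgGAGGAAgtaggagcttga
Myd88: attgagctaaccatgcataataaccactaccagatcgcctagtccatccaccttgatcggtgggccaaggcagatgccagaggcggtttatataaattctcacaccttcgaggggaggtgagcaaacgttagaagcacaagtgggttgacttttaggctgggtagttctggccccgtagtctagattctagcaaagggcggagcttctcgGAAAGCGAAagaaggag
Irak4: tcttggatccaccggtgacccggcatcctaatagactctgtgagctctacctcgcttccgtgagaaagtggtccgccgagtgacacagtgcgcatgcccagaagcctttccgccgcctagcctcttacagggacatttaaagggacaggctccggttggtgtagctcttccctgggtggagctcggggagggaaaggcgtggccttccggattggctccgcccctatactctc
Ticam1: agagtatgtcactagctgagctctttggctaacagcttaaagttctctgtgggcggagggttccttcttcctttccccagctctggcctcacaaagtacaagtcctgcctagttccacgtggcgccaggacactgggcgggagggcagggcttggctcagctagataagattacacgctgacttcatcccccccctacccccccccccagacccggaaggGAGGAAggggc

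Tlr2 held 2 overlapping matches to the NF-kappa-B motif, which 3.9% of 32841 promoters of the same length held. Myd88 held 1 match to the interferon-response core, against 7.13% of promoters, and Tlr1 and Ticam1 each held 1 match to the ETS core, against 23.3%. The windows of Irak4, Nod1 and Nod2 and that of a second Tlr1 start, which overlaps annotated exons and is not shown, held none of the 3 motifs. A match is a description of letters and not a measured binding site.

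The values are FPKM, a level of fragments corrected for gene length and library size, and the depth behind them is unknown. A value of 0 was given for 44.1% of gene rows in Ctrl replicate 1, and for 24.7% to 27.3% in each of the other 11 libraries. A split ran through the libraries as well: the heart gene Nppa stood at 51.2 to 63.9 FPKM in 5 of them (the IR libraries and Ctrl replicates 2 and 3) and at no more than 0.26 FPKM in the remaining 7. Ab_IR and L_IR lie on the other side of it from IR, linked only by Ctrl replicate 1, so whether a batch or the group sets these differences cannot be told apart. The sorted cells also carried transcripts of mature cells, and the HSC genes Slamf1, Mecom, Hoxb5 and Fgd5 stayed under 1 FPKM in all 12 libraries. In bulk RNA, fewer cells of a type and less RNA per cell cannot be told apart.

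The 10 genes differed widely in level. Averaged over the 12 libraries, Cd14 was the most abundant at 50.6 FPKM, followed by Myd88 at 32.2 FPKM, and Irak4, Tlr2 and Ticam1 stood between 6.02 and 6.51 FPKM. Tlr4, Nod1 and Tlr1 stood between 2.47 and 3.39 FPKM, and Ly96 and Nod2 were under 1 FPKM. Ranked within each group, 10 of 36 pairs of neighbours overlapped, such as Irak4 and Ticam1 in Ctrl and Myd88 and Cd14 in IR. In some groups the order differed from that over all libraries, without overlap: Tlr1 stood above Nod1 in IR, Nod1 and Tlr1 above Tlr4 and Tlr2 above Irak4 in Ab_IR, and Nod1 above Tlr4 and Ticam1 above Tlr2 in L_IR.

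**Figure D1:**
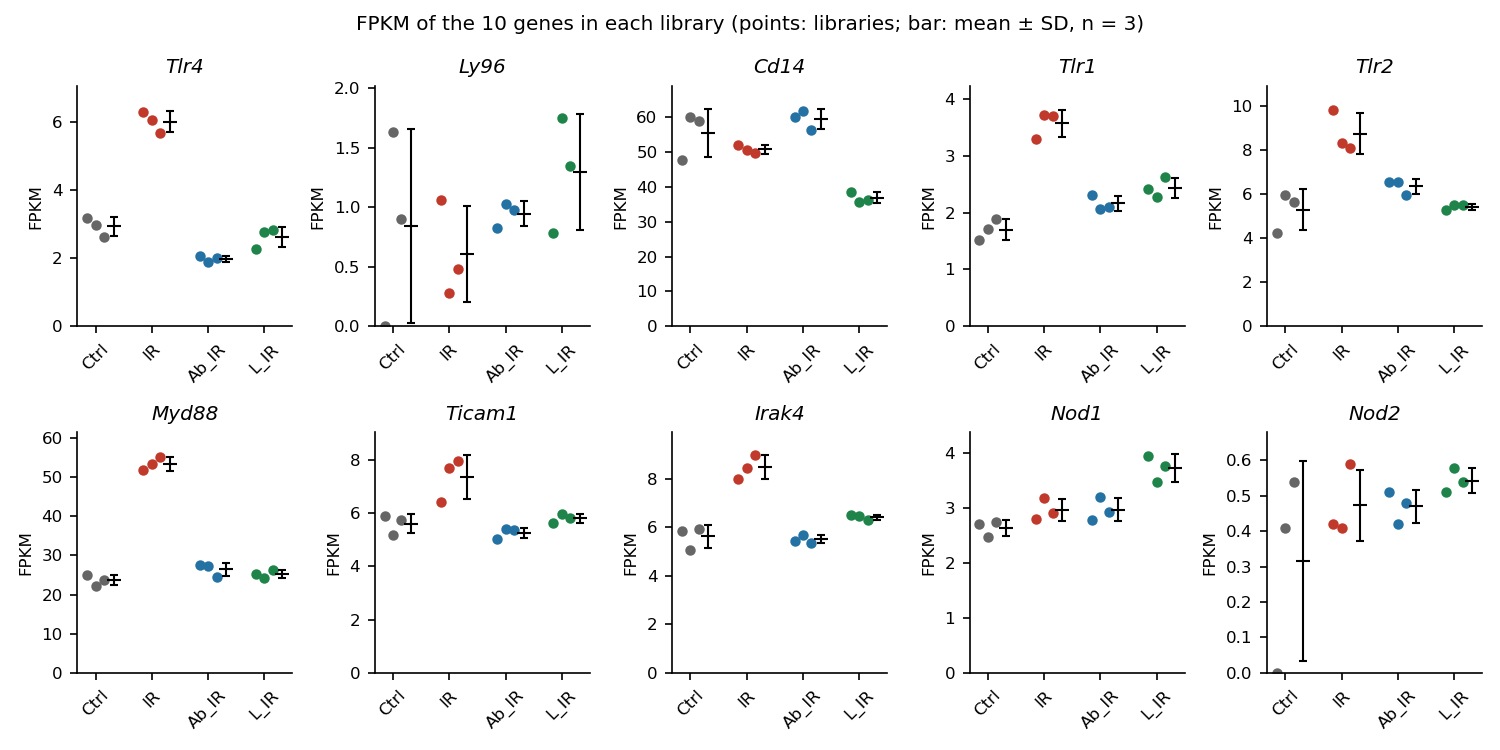
FPKM of each of the 10 genes (vertical axes, each from 0) in the 12 libraries by group (horizontal axes), with points for libraries and bars for mean ± SD of 3 libraries. In IR, Myd88 lay at 51.7 to 55.2 FPKM and Tlr4 at 5.68 to 6.29 FPKM, above every library of the other groups, whereas Cd14 was lowest in L_IR.

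IR was set against Ctrl to see how the sorted cells differed 3 days after irradiation. Tlr1, Tlr2, Tlr4, Myd88, Ticam1 and Irak4 were higher in IR, and none of the 8 genes tested passed as lower with all 6 libraries. Fold changes are those of limma on log2(FPKM + 1), which understates the change of low genes, and a gene passed at a Benjamini-Hochberg adjusted p under 0.05 over all tested genes. Of the 8 members tested, 6 passed upward, where 17.5% of 12072 tested genes passed upward and 25.5% downward. Myd88 was the only member called at an absolute log2 fold change above 1 as well, a limit that 7.6% of tested genes met. With a pseudocount of 0.1, 3 members were called, Myd88 (1.17), Tlr1 (1.03) and Tlr4 (1.01), where 1365 of 12072 tested genes were called. The median log2 fold change was 0.58 over the tested members and -0.05 over all tested genes. Ly96 and Nod2 did not reach 1 FPKM in enough libraries to be tested. Without Ctrl replicate 1, which leaves only libraries that carry Nppa, the same 6 members passed upward and Cd14 passed downward (-0.23), as it did with a term for the libraries that carry Nppa.

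Ab_IR and L_IR were each compared with IR, and these comparisons share the IR libraries. In Ab_IR, 6 of 8 tested members were lower and 1 was higher, where 29.4% of 12067 tested genes were lower and 39.4% higher. In L_IR, 7 of 9 tested members were lower and 1 was higher, where 26% of 12163 tested genes were lower and 40.8% higher. With a term for the libraries that carry Nppa, 5 members passed in L_IR, 4 lower (Tlr4, Myd88, Irak4 and Ticam1) and 1 higher (Ly96). In that fit 6920 of 12163 tested genes passed, counted over both directions. The median log2 fold change of the tested members was -0.47 in Ab_IR and -0.41 in L_IR, beside 0.06 and 0.07 over all tested genes. At the limit of 1 on the log2 scale, 1 member was called in each, Tlr4 in Ab_IR and Myd88 in L_IR, where 7.57% and 6.22% of tested genes were called. Myd88 was also called in Ab_IR without IR replicate 1 (-1.01), Ab_IR replicate 1 (-1.02) or Ab_IR replicate 2 (-1.01), and with a pseudocount of 0.1 or scaling by the median log2 ratio 2 members, Tlr4 and Myd88, were called in each comparison. Over all tested genes, 1512 were called in Ab_IR and 1294 in L_IR with that pseudocount, and 890 and 710 with that scaling.

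**Figure D2:**
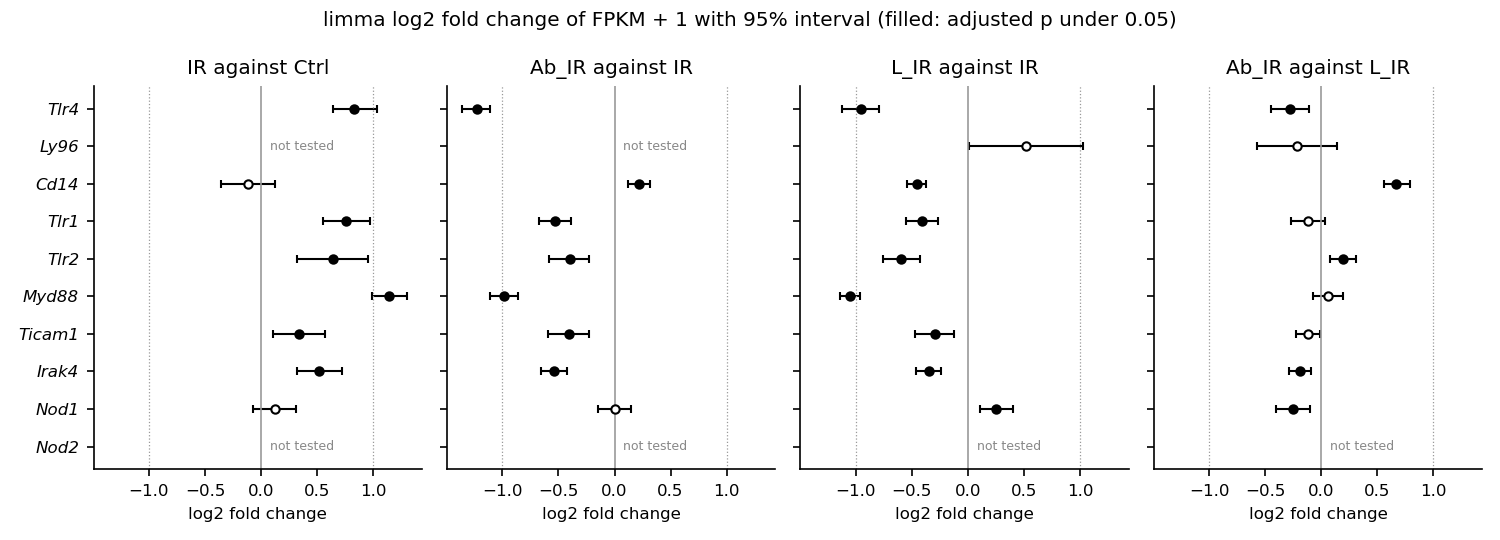
Log2 fold change of FPKM + 1 (horizontal axes) for each gene (vertical axis) in 4 comparisons, with the 95% interval of limma and filled points for an adjusted p under 0.05. Tlr4, Tlr1, Tlr2, Myd88, Ticam1 and Irak4 lay to the right of 0 in IR against Ctrl and to the left in Ab_IR and L_IR against IR, and Cd14 took opposite sides in Ab_IR and L_IR.

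Among the genes of the LPS receptor, Tlr4 (chromosome 4, 66827584 to 66930284, plus strand, GENCODE on GRCm38) was highest in IR. Tlr4 was listed at 3.18, 2.99 and 2.64 FPKM in Ctrl and at 6.29, 6.06 and 5.68 FPKM in IR. It stood at 2.06, 1.88 and 2.0 FPKM in Ab_IR and at 2.28, 2.76 and 2.83 FPKM in L_IR. All IR libraries lay above all others, and those of Ab_IR lay below those of every other group. Tlr4 rose by 0.83 in IR against Ctrl (SE 0.082, adjusted p 0.00052 by limma). It fell by 1.23 in Ab_IR (SE 0.0538, adjusted p 1.61e-06) and by 0.95 in L_IR (SE 0.0708, adjusted p 2.85e-05) against IR.

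Cd14 (chromosome 18, 36725067 to 36726798, minus strand), which delivers LPS to the receptor, followed another pattern. Cd14 was listed at 47.64, 60.11 and 58.92 FPKM in Ctrl and at 51.98, 50.64 and 49.59 FPKM in IR. It stood at 60.06, 61.81 and 56.35 FPKM in Ab_IR and at 38.61, 35.70 and 36.19 FPKM in L_IR. The L_IR libraries lay below all others, while Ctrl overlapped both IR and Ab_IR. Against Ctrl, IR gave -0.12 (95% interval -0.36 to 0.12, adjusted p 0.363 by limma), and -0.23 (adjusted p 0.00424) without Ctrl replicate 1. Against IR, Cd14 rose by 0.22 in Ab_IR (adjusted p 0.00272) and fell by 0.45 in L_IR (adjusted p 4.17e-05). With the Nppa term, described for Tlr2, the rise in Ab_IR against IR still passed, and the L_IR value was -0.14 and no longer passed.

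Ly96 (chromosome 1, 16688051 to 16709611, plus strand), the MD-2 partner of TLR4, was low and uneven. Ly96 was listed at 0, 1.63 and 0.90 FPKM in Ctrl, at 1.06, 0.28 and 0.48 FPKM in IR, at 0.83, 1.03 and 0.98 FPKM in Ab_IR and at 0.78, 1.75 and 1.35 FPKM in L_IR. The groups overlapped throughout, and the value of 0 fell in Ctrl replicate 1. Tested in L_IR against IR, it gave 0.52 (95% interval 0.01 to 1.03, adjusted p 0.0694 by limma). It passed at 0.71 without IR replicate 1, at 0.69 without L_IR replicate 1 and at 1.68 with the Nppa term.

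The lipopeptide receptors were both higher in IR. Tlr1 (chromosome 5, 64924679 to 64933563, minus strand) was listed at 1.51, 1.71 and 1.88 FPKM in Ctrl, at 3.30, 3.71 and 3.69 FPKM in IR, at 2.31, 2.07 and 2.10 FPKM in Ab_IR and at 2.41, 2.28 and 2.62 FPKM in L_IR. Every IR library lay above, and every Ctrl library below, those of the other groups. Tlr1 rose by 0.76 in IR (SE 0.0882, adjusted p 0.00103 by limma) and fell by 0.53 in Ab_IR (adjusted p 0.000175) and by 0.41 in L_IR (adjusted p 0.000842) against IR. With the Nppa term the L_IR value was -0.26 and no longer passed. Tlr6, whose coding sequence closely resembles that of Tlr1, could share reads with it, and its mean was 2.49 ± 0.546 FPKM in Ctrl and 3.84 ± 0.38 FPKM in IR (SD, n = 3), 1.90 ± 0.129 FPKM in Ab_IR and 2.02 ± 0.292 FPKM in L_IR. Tlr6 passed in the same direction as Tlr1 in all 3 comparisons, at 0.48, -0.73 and -0.68.

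Tlr2 (chromosome 3, 83836272 to 83841767, minus strand), the shared partner in this pair and the gene with the NF-kappa-B motif shown above, was listed at 4.25, 5.97 and 5.65 FPKM in Ctrl and at 9.81, 8.33 and 8.08 FPKM in IR. It stood at 6.56, 6.53 and 5.95 FPKM in Ab_IR and at 5.27, 5.48 and 5.51 FPKM in L_IR. The IR libraries were again the highest, and Ctrl overlapped Ab_IR and L_IR. Tlr2 rose by 0.64 in IR (SE 0.131, adjusted p 0.00917 by limma) and fell by 0.40 in Ab_IR (adjusted p 0.00217) and by 0.60 in L_IR (adjusted p 0.000245). With a term for the libraries that carry Nppa, which rests on Ctrl replicate 1, the difference of Ab_IR from IR was -0.03 (adjusted p 0.847), and that of L_IR was -0.22 and no longer passed.

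Myd88 (chromosome 9, 119335934 to 119341411, minus strand), the adaptor used by all 3 TLRs of the list, had the largest log2 fold change of the 8 tested members in IR against Ctrl. Myd88 was listed at 24.91, 22.27 and 23.73 FPKM in Ctrl and at 51.71, 53.30 and 55.19 FPKM in IR. It stood at 27.46, 27.36 and 24.45 FPKM in Ab_IR and at 25.19, 24.31 and 26.31 FPKM in L_IR. The IR libraries lay far above the other 9, among which the groups overlapped. Myd88 rose by 1.14 in IR (SE 0.0653, adjusted p 6.59e-05 by limma) and fell by 0.99 in Ab_IR (SE 0.0532, adjusted p 4.44e-06) and by 1.05 in L_IR (SE 0.038, adjusted p 1.06e-06). Its exons overlap those of Acaa1a on the other strand, and since the counting strand is not stated, reads of the overlap cannot be assigned. Acaa1a was 5.46 ± 0.269 FPKM in Ctrl, 8.15 ± 0.77 FPKM in IR, 9.13 ± 0.643 FPKM in Ab_IR and 8.59 ± 0.376 FPKM in L_IR. Its log2 fold change was 0.50 in IR against Ctrl (adjusted p 0.00425 by limma), and against IR it was 0.15 in Ab_IR (adjusted p 0.11), with 0.07 for L_IR (adjusted p 0.374).

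Irak4 (chromosome 15, 94543643 to 94581815, plus strand), the kinase recruited by MyD88, was listed at 5.87, 5.07 and 5.95 FPKM in Ctrl and at 8.01, 8.45 and 8.99 FPKM in IR. It stood at 5.45, 5.71 and 5.38 FPKM in Ab_IR and at 6.50, 6.47 and 6.30 FPKM in L_IR. IR was the highest group without overlap, followed by L_IR, and Ctrl and Ab_IR overlapped. Irak4 rose by 0.52 in IR (SE 0.0825, adjusted p 0.00349 by limma) and fell by 0.54 in Ab_IR (adjusted p 7.25e-05) and by 0.35 in L_IR (adjusted p 0.000449). Its exons overlap Twf1 on the other strand, which stood at 12.6 ± 0.498 FPKM in Ctrl, 16.0 ± 0.692 FPKM in IR, 11.7 ± 0.58 FPKM in Ab_IR and 13.6 ± 0.21 FPKM in L_IR. Twf1 passed in the same direction as Irak4 in all 3 comparisons, at 0.32, -0.42 and -0.22.

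Ticam1 (chromosome 17, 56269319 to 56276786, minus strand), the TRIF adaptor, was listed at 5.90, 5.20 and 5.74 FPKM in Ctrl, at 6.42, 7.72 and 7.98 FPKM in IR, at 5.05, 5.39 and 5.37 FPKM in Ab_IR and at 5.63, 5.98 and 5.83 FPKM in L_IR. IR did not overlap the other groups, its lowest library standing at 6.42 FPKM and the highest of the others at 5.98 FPKM. Ticam1 rose by 0.34 in IR (SE 0.096, adjusted p 0.0308 by limma), a call lost in 4 of 6 fits that left out a library (Ctrl replicate 2 or 3, IR replicate 2 or 3), with adjusted p up to 0.117, and without the filter on low values (adjusted p 0.0681). It fell by 0.41 in Ab_IR (adjusted p 0.00218) and by 0.29 in L_IR (adjusted p 0.0111) against IR.

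Of the cytosolic sensors, Nod1 was highest in L_IR and Nod2 was near the lower limit of the data. Nod1 (chromosome 6, 54923949 to 54972612, minus strand) was listed at 2.72, 2.48 and 2.74 FPKM in Ctrl, at 2.80, 3.19 and 2.92 FPKM in IR, at 2.79, 3.20 and 2.93 FPKM in Ab_IR and at 3.96, 3.47 and 3.77 FPKM in L_IR. The L_IR libraries lay above all others, and IR and Ab_IR overlapped. Against Ctrl, IR gave 0.12 (95% interval -0.07 to 0.31, adjusted p 0.255 by limma), which became 0.31 under quantile normalization and then passed. Against IR, Ab_IR gave 0.00 (95% interval -0.15 to 0.15), or -0.17 and past the threshold under quantile normalization. Nod1 rose by 0.25 in L_IR (adjusted p 0.008), a call lost at 0.08 under quantile normalization and at 0.21 with the Nppa term. Nod2 (chromosome 8, 88647315 to 88688474, plus strand) was listed at 0 in Ctrl replicate 1 and at 0.41 to 0.59 FPKM in the other 11 libraries, with all groups close together, and was not tested.

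Ab_IR and L_IR were also compared with each other, both lying on the same side of the Nppa split. Of 9 tested members, 2 were higher in Ab_IR and 3 lower, where 18.2% of 12194 tested genes were higher and 19.8% lower. None was called at the limit of 1, which 0.533% of genes met. Cd14 differed most, at 0.67 higher in Ab_IR (SE 0.049, adjusted p 0.000126 by limma), without overlap of libraries. Tlr2 was 0.19 higher in Ab_IR (adjusted p 0.0199), and Tlr4 (-0.28, adjusted p 0.0223), Nod1 (-0.25, adjusted p 0.0181) and Irak4 (-0.19, adjusted p 0.0119) were lower. Cd14 and Irak4 passed in all 6 fits that left out a library, Nod1 in 4 (not without L_IR replicate 1 or 3), Tlr4 in 2 (not without Ab_IR replicate 2 or 3 or L_IR replicate 2 or 3) and Tlr2 in 1, without Ab_IR replicate 3. With all 12 libraries in one fit, Irak4 (adjusted p 0.0557 by limma) and Tlr2 (adjusted p 0.215) no longer passed, and without the filter on low values Tlr4 (adjusted p 0.0744) and Nod1 (adjusted p 0.0564) did not. Myd88 gave 0.06 (95% interval -0.07 to 0.19), Tlr1 -0.12 (95% interval -0.27 to 0.03) and Ticam1 -0.12 (95% interval -0.23 to -0.01, adjusted p 0.0761).

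Ab_IR and L_IR were also set against Ctrl. In Ab_IR, 0 of 8 tested members passed by limma, where 1.45% of 12134 genes were higher, 0.651% lower and 0.923% called, and 2 had an unadjusted p under 0.05, Tlr1 and Tlr4. Tlr4 gave -0.40 (95% interval -0.61 to -0.19, adjusted p 0.0926) with every Ab_IR library below every Ctrl library, and Myd88 gave 0.15 (95% interval -0.04 to 0.35). Fitting all 12 libraries together brought Tlr1 and Tlr4 past the threshold, where 2343 of 12134 tested genes passed. With the Nppa term 4 members passed, Tlr1 (0.33), Tlr2 (0.48), Tlr4 (-0.49) and Cd14 (0.31), where 7138 of 12134 tested genes passed. In L_IR, 2 of 9 tested members passed, Nod1 higher by 0.38 (adjusted p 0.0355) and Cd14 lower, at -0.57 (adjusted p 0.0203), where 4.76% of 12251 genes were higher, 4.08% lower and 2.65% called. Both calls were lost in 5 of 6 fits that left out a library, those without Ctrl replicate 2 or 3 or any 1 of the L_IR libraries. Tlr1 gave 0.35 (adjusted p 0.0698) and passed at 0.30 without Ctrl replicate 1. With all 12 libraries in one fit it passed at 0.35 (adjusted p 0.00611 by limma), where 2680 of 12251 tested genes passed. Nod1 no longer passed without the filter on low values. With the Nppa term 5 members passed, Tlr1 (0.45), Tlr2 (0.29) and Ly96 (1.17, called) being added to Nod1 and Cd14. In that fit 6648 of 12251 tested genes passed and 876 were called.

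The other genes of the pathway moved in both directions. Of 21 other pattern receptors and cofactors, 16 were tested in IR against Ctrl, of which 6 were higher and 4 lower, where 17.5% of all tested genes were higher and 25.5% lower. Their median log2 fold change was 0.16, beside -0.05 over all tested genes. Lbp, which carries LPS to CD14, rose from 21.8 ± 0.68 to 52.0 ± 1.89 FPKM (1.22, adjusted p 3.83e-05 by limma) and Pglyrp1, a peptidoglycan-binding protein of neutrophil granules, from 44.7 ± 11.7 to 90.9 ± 5.17 FPKM (1.04, adjusted p 0.00637). Nlrp3, an inflammasome sensor, fell from 7.44 ± 0.757 to 2.67 ± 0.323 FPKM (-1.20, adjusted p 0.000316). Against IR, 7 of 17 were higher and 7 lower in Ab_IR, and 6 higher and 7 lower in L_IR, beside 39.4% and 29.4% of all tested genes in Ab_IR and 40.8% and 26% in L_IR. In these comparisons Lbp stood at -1.24 and -1.41, Nlrp3 at 1.41 and 1.56 and Pglyrp1 at -0.58 and -1.45 on the log2 scale.

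Of 31 genes of signalling downstream of the receptors, 8 were higher and 9 lower in IR, where 17.5% of all tested genes were higher and 25.5% lower, and the median was -0.01. Tirap, which bridges MyD88 to TLR2 and TLR4, rose from 3.78 ± 0.35 to 10.3 ± 0.182 FPKM (1.24, adjusted p 8.18e-05 by limma), whereas Irf7, an interferon regulator, fell from 9.28 ± 0.448 to 3.13 ± 0.835 FPKM (-1.34, adjusted p 0.00108). Against IR, 11 were higher and 11 lower in Ab_IR and 13 higher and 12 lower in L_IR, beside 39.4% and 29.4% of all tested genes in Ab_IR and 40.8% and 26% in L_IR. Tirap gave -1.52 and -1.10 and Irf7 1.68 and 1.64 in these comparisons. Of 16 genes that restrain the pathway, 15 were tested, 3 were higher and 4 lower in IR, with a median of 0.11 beside -0.05 over all tested genes. Tnfaip3, which encodes the ubiquitin-editing enzyme A20, fell from 38.8 ± 4.21 to 13 ± 0.557 FPKM (-1.50, adjusted p 7.78e-05 by limma) and was 1.39 higher in Ab_IR and 1.65 higher in L_IR than in IR. Nfkbia, the inhibitor of NF-kappa-B, fell from 112.9 ± 1.92 FPKM in Ctrl to 63.1 ± 0.414 FPKM in IR (-0.83, adjusted p 9.79e-05 by limma). It was 128 ± 5.03 FPKM in Ab_IR (1.0 against IR, adjusted p 8.53e-07 by limma). In L_IR it was 108.5 ± 2.13 FPKM and also passed as higher than in IR. Among these restraint genes 6 were higher and 7 lower in Ab_IR, and 6 higher and 6 lower in L_IR.

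**Figure D3:**
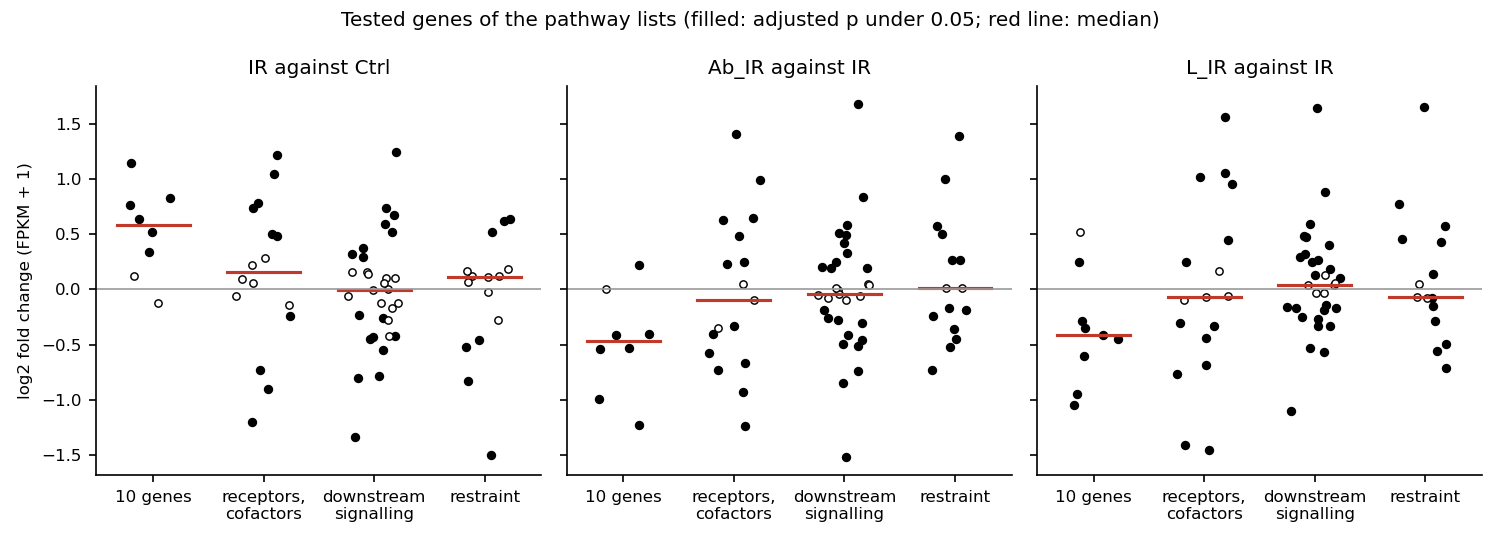
Log2 fold change of FPKM + 1 (vertical axis) of the tested members and of 3 pathway lists (horizontal axes) in 3 comparisons, with filled points for an adjusted p under 0.05 and a red line for each median. The median of the tested members was 0.58 in IR against Ctrl and -0.47 and -0.41 against IR, while the lists lay on both sides of 0.

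Transcripts of other cell types moved with some of these differences, and their part in the results was not tested. The summed FPKM of 10 neutrophil markers was 2955 to 4460 in Ctrl, 7583 to 8033 in IR, 3947 to 4173 in Ab_IR and 1442 to 1530 in L_IR. Of these markers, 7 were higher and 1 lower in IR than in Ctrl, 2 were higher and 7 lower in Ab_IR than in IR, 1 was higher and 9 were lower in L_IR than in IR, and all 10 were higher in Ab_IR than in L_IR. Over all tested genes, 17.5% were higher and 25.5% lower in IR against Ctrl, 39.4% and 29.4% in Ab_IR against IR, and 40.8% and 26% in L_IR against IR. The shares were 18.2% and 19.8% in Ab_IR against L_IR and 4.76% and 4.08% in L_IR against Ctrl. The 6 members that rose in IR and the neutrophil sum were both higher in IR than in Ctrl and lower in Ab_IR and L_IR than in IR. Between L_IR and Ab_IR the neutrophil markers were all lower in L_IR. Of the 6 members, Tlr2 was lower in L_IR too, and Tlr4 and Irak4 were higher in L_IR. In L_IR against Ctrl 8 neutrophil markers were lower, and none of the 6 members passed in either direction. Sums of 10 monocyte markers were 545 to 647 in Ctrl, 626 to 635 in IR, 551 to 590 in Ab_IR and 537 to 541 in L_IR, and those of 10 macrophage markers were 65.7 to 74.5, 46.6 to 54.2, 72.8 to 80.3 and 66.1 to 75.5 in the same order. These sums are carried by a few genes and differ from the counts of markers. Of the 10 monocyte markers, 3 were higher and 5 lower in IR than in Ctrl: Ms4a3, which makes up most of the sum in IR, went from 291 to 461 FPKM, while Ly6c2 went from 158 to 35.1 FPKM, Klf4 from 25.7 to 11.6 FPKM and Csf1r from 17.0 to 7.88 FPKM. Against IR, 7 monocyte markers were higher and 2 lower in Ab_IR, and 8 higher and 1 lower in L_IR. Of 9 tested macrophage markers, 3 were higher and 3 lower in IR than in Ctrl, 5 higher and 2 lower in Ab_IR than in IR, and 6 higher and 1 lower in L_IR than in IR. Cd14 was lower in L_IR than in IR and in Ab_IR, as were 9 and 10 of the neutrophil markers. In Ab_IR against IR, where Cd14 rose, Camp (0.51) and Retnlg (1.85) were the 2 neutrophil markers that rose and 7 fell.

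**Figure D4:**
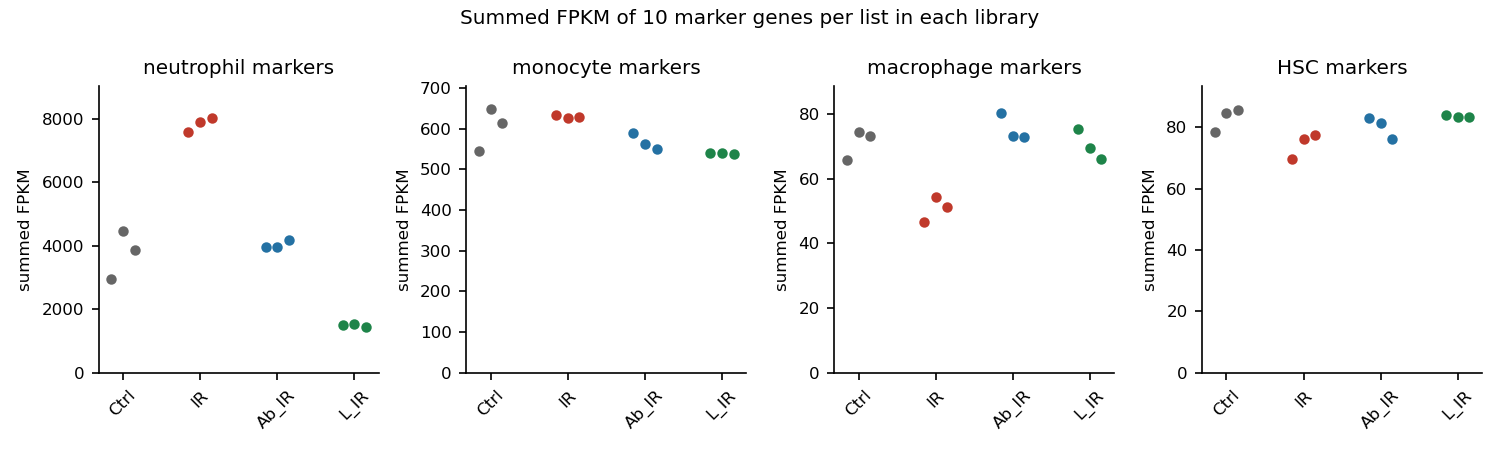
Summed FPKM of 10 markers each (vertical axes, each from 0) for neutrophils, monocytes, macrophages and HSCs in the 12 libraries by group (horizontal axes), with points for libraries. The neutrophil sum was highest in IR at 7583 to 8033 and lowest in L_IR at 1442 to 1530, and the macrophage sum was lowest in IR.

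The remaining lists were as follows. The 10 HSC markers summed to 78.4 to 85.7 FPKM in Ctrl, 69.6 to 77.5 in IR, 76.3 to 82.9 in Ab_IR and 83.2 to 84.0 in L_IR, although in IR against Ctrl Ly6a was higher and Kit and Gata2 were lower. The 8 plasma cell markers summed to 638 to 749, 1005 to 1027, 1095 to 1183 and 1481 to 1507 FPKM in the same order. This sum is carried by Jchain, at 587 FPKM in Ctrl, 720 FPKM in IR, 954 FPKM in Ab_IR and 1275 FPKM in L_IR. Of the 8 markers, 7 were higher in IR than in Ctrl, but in Ab_IR against IR 3 were higher and 5 lower (Derl3, Xbp1, Irf4, Mzb1 and Prdm1). In L_IR against IR 6 were higher and 1 lower. Over all tested genes the shares were 17.5% higher in IR against Ctrl, 39.4% higher and 29.4% lower in Ab_IR against IR, and 40.8% higher and 26% lower in L_IR against IR. The 10 B cell markers summed to 31.7 to 36.0, 29.9 to 31.0, 46.7 to 47.6 and 52.5 to 53.6 FPKM, with Ms4a1, Ebf1, Pax5 and Cd22 under 1 FPKM in all libraries. The 8 heart muscle markers summed to 0.26, 120 and 141 FPKM in the Ctrl libraries, to 115 to 147 FPKM in IR and to at most 0.59 FPKM in Ab_IR and L_IR. None of these markers was at 0 in all 12 libraries.

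The genes with the most similar course over the 12 libraries were taken by Pearson's r of log2(FPKM + 1) among about 7169 genes, as a description with no test, since the libraries fall into 4 groups. For Myd88 they were Neu1 and Vps26b (both 0.994), for Tlr4 Abcd2 (0.988) and Agps (0.984), for Tlr1 Ubfd1 (0.983) and Anxa7 (0.979), and for Tlr2 Surf1 (0.98) and Cdk2ap2 (0.977). For Irak4 they were Mcm3ap (0.984) and Abcf2 (0.983), for Ticam1 Igf2r (0.945) and Irak4 (0.944), and for Nod1 Elmo2 (0.945) and Lax1 (0.935). Cd14 was instead most like Camp (0.973) and Lyz2 (0.964), which encode antimicrobial proteins of neutrophil and myeloid granules.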

How the data were processed

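RNA-seq was made from 12 libraries of sorted bone marrow cells, grouped by the treatment label. The deposited values are FPKM per gene as the authors computed them, a unit read from the values because no header names it. The submitters' processing notes name fastp, HISAT2 and StringTie with GRCm38/mm10, whereas the study's methods name fastp, RSEM and DESeq2. Versions of the former and the annotation are not given in the sources used here. Depth is unknown, so no counting interval is given. FPKM are not counts, and no count model was run.

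Values were taken as log2(FPKM + 1), a gene being kept if 3 of the 6 libraries of a comparison reached 1 FPKM. Each pair of groups had its own limma fit with a mean-variance trend (version 3.58.1, R 4.3.3), and p-values were adjusted by Benjamini-Hochberg over all tested genes. Genes passed at an adjusted p under 0.05 and were called when the absolute log2 fold change was also above 1. The 6 pairs of groups were compared. The scripts were tested on simulated data. Pathway genes were named when called in IR against Ctrl, Ab_IR against IR or L_IR against IR, at most 3 per list with the largest change and a mean of at least 2 FPKM. Likeness used genes of at least 5 FPKM, 2 per member without predicted-gene names. Tlr6, Acaa1a, Twf1 and Nppa were named for shared reads, overlap or the library split. The members and lists were chosen with earlier results of these data known. Gene positions are from GENCODE M21. Figures used matplotlib 3.10.9 in Python 3.11.15.

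Alternatives were another pseudocount (0.1), no filter, scaling by quantiles or by the median log2 ratio, no trend, a joint fit of all 12 libraries without or with a term for those that carry Nppa, a block for the replicate number, and leaving out each library.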

Additional observations from a re-analysis of the deposited data

How the results depend on the processing

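Beside the fits that left out a library, 408 member fold changes were recomputed, of which 374 kept direction and side of the threshold, 18 no longer passed, 14 newly passed and 2 took the other direction. With a pseudocount of 0.1, 3 members were called in IR against Ctrl, 2 in Ab_IR against IR and 2 in L_IR against IR. Over all tested genes, 1365, 1512 and 1294 were called in the same order. Median scaling gave 2 called in Ab_IR and 2 in L_IR against IR, and quantile normalization 2 in L_IR against IR. Over all tested genes, 890, 710 and 676 were called in the same order. Without the filter, 5 members passed in IR against Ctrl, 1 in L_IR against Ctrl and 3 in Ab_IR against L_IR. Over all genes then tested, 4732 of 28598, 713 of 28876 and 3904 of 28712 passed in the same order. With all 12 libraries in one fit, 2 passed in Ab_IR against Ctrl and 3 in Ab_IR against L_IR, and Tlr1 was added in L_IR against Ctrl. Over all tested genes, 2343, 2465 and 2680 passed in these fits. With the term for Nppa, 2 members were called in Ab_IR against IR, 5 passed and 3 were called in L_IR against IR, 4 passed in Ab_IR against Ctrl, and 5 passed and 1 was called in L_IR against Ctrl. Over all tested genes with that term, 1960 were called in Ab_IR against IR, and 6920 passed and 1554 were called in L_IR against IR. Against Ctrl, 7138 passed in Ab_IR, and 6648 passed and 876 were called in L_IR. That term rests on Ctrl replicate 1, and the cause of these changes was not tested.

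Leaving out each library gave 5 to 7 members past the threshold in IR against Ctrl, 1 to 2 called in Ab_IR against IR (2 without IR replicate 1, Ab_IR replicate 1 or Ab_IR replicate 2), 0 to 3 past in L_IR against Ctrl and 2 to 4 past in Ab_IR against L_IR. The values that took the other direction had not passed to begin with: Cd14 in Ab_IR against Ctrl gave -0.01 under quantile normalization, Ticam1 in L_IR against Ctrl -0.02 with the Nppa term, Irak4 in Ab_IR against Ctrl -0.09 to 0.01 and Tlr2 in L_IR against Ctrl -0.08 to 0.12 when a library was left out.

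With the replicate block, 0 members passed in L_IR against Ctrl (Cd14 and Nod1 lost) and 2 in Ab_IR against L_IR (Tlr2, Tlr4 and Nod1 lost, at adjusted p 0.0609, 0.0521 and 0.0575), and Ticam1 no longer passed in IR against Ctrl (adjusted p 0.0689 by limma). Whether the titles' numbers pair the libraries cannot be decided with 3 libraries per group. Same-numbered libraries correlated in their deviations from the group mean at -0.269 to 0.208.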
